A study of Homo sapiens with 480 samples.

Results

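The 37 genes described here encode nucleolar proteins that make ribosomes, and were taken by name from the 20302 features of a single-cell RNA-seq table of Jurkat and J-Lat A2 cells. All 37 were found in the table and all 37 passed the filter on low counts, as did 13560 features in all. The Jurkat line came from a human T cell leukaemia. J-Lat A2 is 1 clone of Jurkat that carries an integrated, HIV-derived reporter construct and serves as a model of HIV latency. Cells of both lines had been kept for 24 h in flasks with 0.1% (v/v) DMSO, the vehicle, with 1 uM SAHA (vorinostat, an inhibitor of histone deacetylases) or with 1 ug/mL of the phorbol ester PMA, an activator of protein kinase C. Single live cells were then sorted into 96-well plates and their full-length cDNA was sequenced. The 410 of 480 wells kept comprised 94 J-Lat A2 cells with DMSO, 67 and 68 (in the 2 batches) with SAHA and 79 with PMA, and 30 Jurkat cells with DMSO, 36 with SAHA and 36 with PMA. By their names, as the labels give no batch, the 5 plates were taken as 2 batches, and J-Lat A2 with DMSO, J-Lat A2 with SAHA and Jurkat with DMSO were in both. The other 3 groups were in the second batch alone, on 3 plates.

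Ribosomes are assembled in the nucleolus, where RNA polymerase I transcribes the ribosomal RNA precursor. Small nucleolar ribonucleoproteins (snoRNPs) then modify this precursor, the box C/D type by methylation of ribose and the box H/ACA type by pseudouridylation. Processome and assembly factors cut and fold it with ribosomal proteins into the small and the large subunit, and in T cells the pathway is known to run high during growth.

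Kept wells held 19756 to 984418 counts each (median 514679). Plate P2458, in the first batch, was shallower, with median totals of 211622 to 249914 counts in its 3 groups. Of the J-Lat A2 wells with SAHA 67 of 120 and 68 of 81 were kept in the 2 batches, against 94 of 96 with DMSO. The median mitochondrial share of counts was 4.93% with SAHA, 3.96% with PMA and 3.60% with DMSO in J-Lat A2 cells, and 4.51%, 3.67% and 3.42% in Jurkat cells. Of 13 T cell genes, among them CD3D, CD3E and LCK, 9 were above 10 counts per 1000000 (CPM) in every group and none was at 0 in every group. The summed level of these genes was 1020 to 13600 CPM and moved with the agents. TRBC1 was at 2050, 345 and 8730 CPM in J-Lat A2 and at 2440, 565 and 6800 CPM in Jurkat with DMSO, SAHA and PMA, and LCK was at 788, 249 and 747 CPM in J-Lat A2. The part of these moves in the results was not tested. Genes of myeloid (0 to 0.708 CPM), erythroid (0 to 2.21 CPM) and fibroblast or epithelial cells (0.0745 to 5.58 CPM) were at or near 0. The B cell genes MS4A1 and CD79B were at 0, and CD79A reached 88.9 CPM in J-Lat A2 with PMA.

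The kept cells of each group were added up within each batch into 9 sums, 1 or 2 to a group. Levels are CPM of such a sum, or of the cells of 1 group on 1 plate, normalised by the trimmed mean of M values (TMM). A gene was said to have fallen or risen when its adjusted p was under 0.05 in edgeR's quasi-likelihood test with a batch term, with Benjamini-Hochberg adjustment over all 13560 genes. Whether the batches came from different cultures is not stated in the labels, so the p-values may measure technical spread alone. The SAHA and the PMA contrast of a line share their DMSO sums and are therefore not independent of each other.

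Counts of the 37 genes made up about 1% of all counts in DMSO-treated cells of both lines and close to 0.5% after either agent. In the batch sums of J-Lat A2 they held 1.00% and 1.021% of the counts with DMSO, 0.495% and 0.473% with SAHA, and 0.521% with PMA. In Jurkat they held 0.934% and 0.990% with DMSO, 0.434% with SAHA and 0.512% with PMA. The plate sums did not overlap: the 10 with DMSO lay between 0.893% and 1.09%, and the 14 with an agent lay between 0.420% and 0.546%. NPM1 and NCL alone held 0.367% and 0.408% of the counts of J-Lat A2 with DMSO, against 0.148% and 0.153% with SAHA and 0.187% with PMA. The remaining 35 genes held 0.634% and 0.614% with DMSO, 0.348% and 0.320% with SAHA and 0.335% with PMA, so the lower share was not due to these 2 genes alone. A summed share cannot tell a lower share in most cells from a much lower share in some, and the single cells bear on this. All levels here are relative to the other counts of the same cells, so amounts of RNA per cell were not measured.

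In single cells most values lay below those with DMSO. The median cell spent 0.988% of its counts on the 37 genes in J-Lat A2 with DMSO, 0.490% with SAHA and 0.515% with PMA. In Jurkat the medians were 0.983%, 0.439% and 0.489%. Below the DMSO median of their line were 96.3% of J-Lat A2 cells given SAHA, 79 of 79 with PMA, and 36 of 36 Jurkat cells with each agent. Below the 10th percentile of the DMSO cells were 93.3%, 97.5%, 100% and 100% of these cells. J-Lat A2 cells with SAHA varied most, from 0.00671% to 2.41%, and from 0.227% to 1.32% among those with at least 100000 counts. Thinned to 100000 counts, the median J-Lat A2 cell had a read of 29 of the 37 genes with DMSO, 19 with SAHA and 21 with PMA, and the median Jurkat cell of 31.5, 24 and 25.5. Without thinning, the median J-Lat A2 cell had a read of 5032 genes in all with DMSO, 4458 with SAHA and 4484 with PMA. The median Jurkat cell had a read of 6092, 5999 and 5521. Cells of 1 flask are not replicates of a treatment, so these shares and counts are given without a test.

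**Figure D1:**
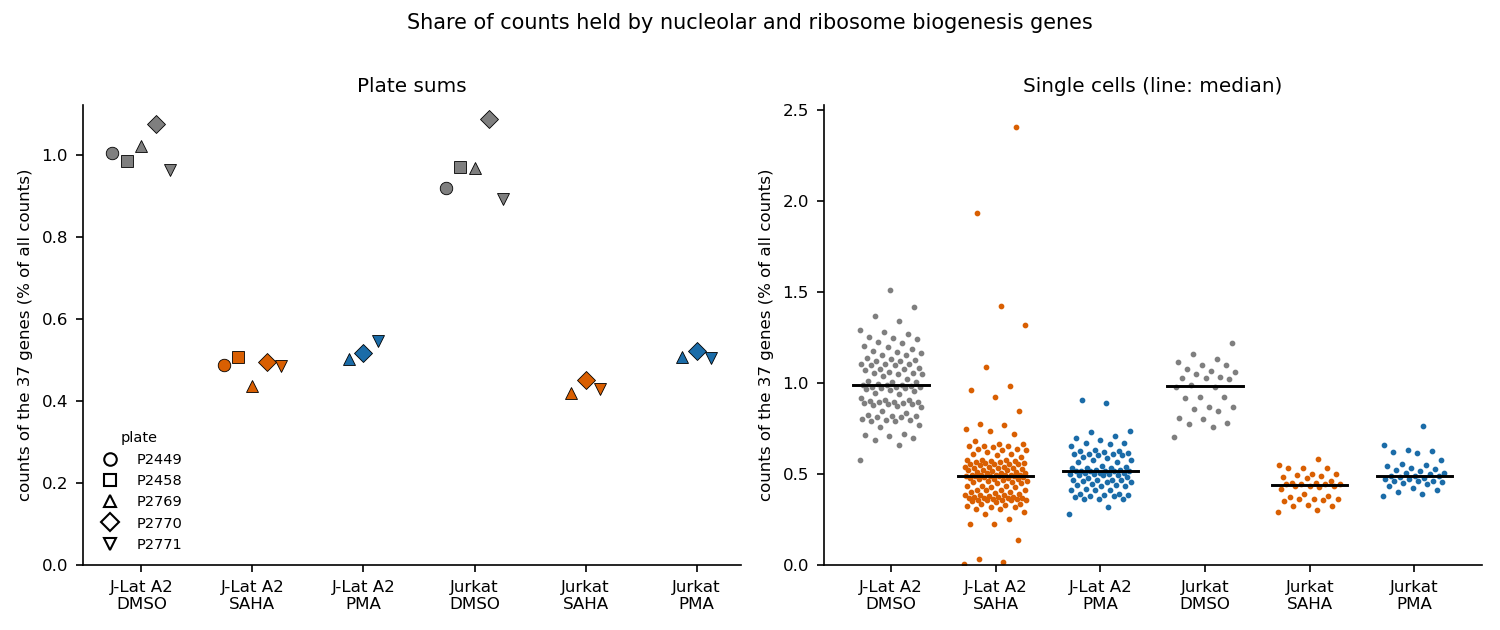
Share of all counts (%, y axis) held by the 37 genes in each group (x axis), for plate sums on the left (1 marker shape per plate) and single cells on the right (line: median). Every agent plate (0.420% to 0.546%) lies below every DMSO plate (0.893% to 1.09%), and the single cells with an agent lie mostly below those with DMSO apart from a few J-Lat A2 cells with SAHA.

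With SAHA, 22 of the 37 genes fell in J-Lat A2 cells and none rose, where 4.9% of all tested genes fell. Their log2 changes ran from -2.05 to 0.20, with a median of -1.13 against 0.12 for all tested genes, and 34 of 37 were below 0. The largest called changes were those of MRTO4 (-2.05), NOP16 (-1.96), BOP1 (-1.87), POLR1B (-1.79) and GNL3 (-1.73). On the plates, 22 members were lower on each of the 5 SAHA plates than on each of the 5 DMSO plates, which held for 5.08% of all tested genes, and 20 of the called 22 were among them. LYAR and LAS1L were called although their plate levels overlapped. With wells of at least 100000 counts and 2000 genes alone, 23 members fell, and with all wells 21 (5.03% and 4.98% of all tested genes fell). In the following fits without 1 sum, fewer of all tested genes fell as well. Leaving out the first DMSO batch of this line gave 14, the second DMSO batch 10 and the second SAHA batch 14.

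With PMA, 6 members fell in J-Lat A2 cells and none rose, where 0.804% of all tested genes fell. These were NOLC1, DKC1, NPM1, NOP56, NCL and POLR1B. The median log2 change of the 37 was -0.97 against 0.04 for all tested genes, and 32 of 37 were below 0. An unadjusted p under 0.05 was found for 23 of them and for 1636 of all 13560 genes. On the plates, 20 members were lower on each of the 3 PMA plates than on each of the 5 DMSO plates, against 5.13% of all tested genes. PMA was in 1 batch only in this line, so no spread between PMA batches enters its p-values. Of all tested genes 2.71% fell in this contrast under DESeq2 and 2.91% under plate sums with a plate block. In the following fits without 1 sum, the number of all tested genes that fell moved in the same direction as that of the members. Leaving out the second DMSO batch gave 0 members (DESeq2 on all sums called 14 and plate sums with a plate block 15), and leaving out either SAHA batch gave 11.

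In Jurkat cells SAHA lowered 15 members and raised none, where 2.37% of all tested genes fell. The median log2 change was -1.34 against 0.11 for all tested genes, and 36 of 37 were below 0. POLR1C (-2.31), NOP16 (-2.10), MRTO4 (-2.08), GNL3 (-2.05) and TSR1 (-1.99) had the largest called changes. On the plates, 21 members were lower on each SAHA plate than on each DMSO plate, against 5.74% of all tested genes, and all 15 called members were among them. Fewer of all tested genes also fell in the fit without 1 sum that follows. Leaving out the second Jurkat DMSO batch gave 8.

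With PMA, 8 members fell in Jurkat cells and none rose, where 1.11% of all tested genes fell. The 8 were DKC1, DDX21, WDR43, NOLC1, NCL, TSR1, NOP56 and NPM1. The median log2 change was -1.01 against 0.07, and 35 of 37 were below 0. Here 21 members had plate levels wholly below those with DMSO, against 3.95% of all tested genes. Of all tested genes 3.48% fell in this contrast under DESeq2 and 3.5% under plate sums with a plate block. In the following fits without 1 sum, the number of all tested genes that fell moved in the same direction as that of the members. Leaving out the second Jurkat DMSO batch gave 2, the first SAHA batch of J-Lat A2 14 and its second 15, and DESeq2 on all sums called 17 and plate sums with a plate block 19.

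**Figure D2:**
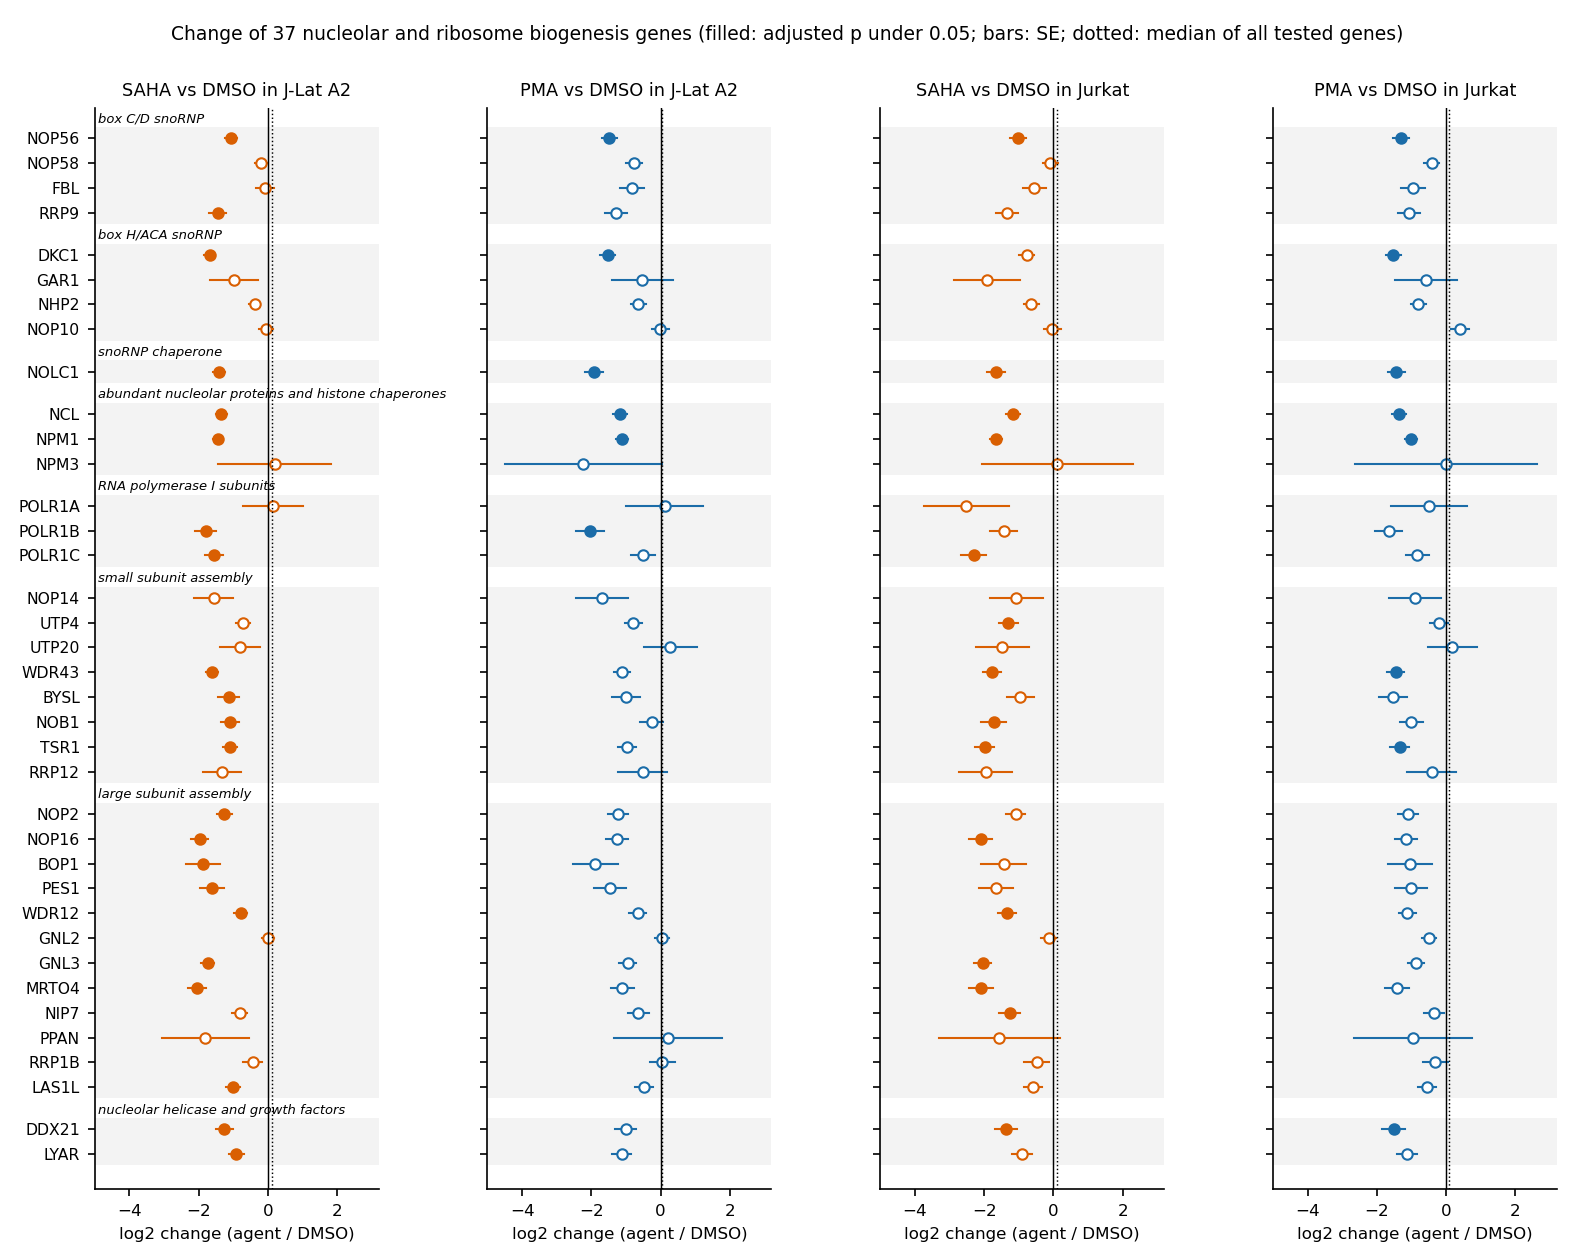
Log2 change with SE (x axis) of each of the 37 genes (y axis, grouped by role) in the 4 contrasts of an agent with DMSO, with filled points at an adjusted p under 0.05 and the dotted line at the median of all tested genes. Filled points number 22, 6, 15 and 8 from left to right, all of them left of 0, while NOP10 and GNL2 stay near 0 in most panels.

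Abundant genes are measured with less error, so the counts were also read at like levels. Among the 27 members with a mean of at least 50 CPM, 19, 5, 15 and 8 fell in the 4 contrasts (SAHA and PMA in J-Lat A2, then SAHA and PMA in Jurkat). Among all tested genes at that level 14.1%, 2.60%, 7.18% and 3.67% fell. Over the 4 contrasts, 4 members fell in all, 4 in 3, 7 in 2, 9 in 1 and 13 in none. Such counts over contrasts were not made for all tested genes, and the contrasts of a line share their DMSO sums. How far they exceed those of other genes was therefore not tested. The 4 that fell in every contrast were NPM1, NCL, NOLC1 and NOP56. Among their calls, that of NOP56 with SAHA in Jurkat was lost under 6 alternative fits, and each other call under 1 to 3. With every cell given equal weight (limma on means of log values), no member passed in any of the 4 (lowest adjusted p of 0.107, 0.297, 0.125 and 0.152), nor did any of the 13560 genes. In that fit 28, 21, 21 and 20 members had an unadjusted p under 0.05 (2618, 1210, 2313 and 1992 of all genes), and the median log2 differences of the 37 were -2.52, -1.69, -2.11 and -1.63.

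NPM1, or nucleophosmin, is an abundant histone chaperone that shapes the granular part of the nucleolus. On plates P2449, P2458, P2769, P2770 and P2771 its level in J-Lat A2 was 2490, 1934, 3094, 2174 and 2014 CPM with DMSO and 823, 758, 1217, 860 and 920.5 CPM with SAHA. On the last 3 of these plates it was 1585, 952.5 and 1133 CPM with PMA. Neither agent overlapped DMSO, and 4 of the 5 SAHA plates lay below every PMA plate. In Jurkat it was 2119, 1992, 2596, 2308 and 1651 CPM with DMSO, 905, 616 and 679 CPM under SAHA and 1466, 988.5 and 981.5 CPM under PMA, again without overlap with DMSO. NPM1 fell by 1.45 ± 0.13 (SE, log2, adjusted p = 0.000267) with SAHA and by 1.12 ± 0.17 (0.0104) with PMA in J-Lat A2. In Jurkat it fell by 1.65 ± 0.18 (0.00193) and 1.02 ± 0.17 (0.0154). NPM1 has processed pseudogenes, and no source used here says how reads shared with them were counted.

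NCL, or nucleolin, binds the ribosomal RNA precursor and helps to process it. Its level in J-Lat A2 was 1378, 1296, 1287, 1967 and 1694 CPM on the 5 plates with DMSO, 543, 675, 465, 732 and 585 CPM with SAHA, and 477, 943 and 762.5 CPM on the 3 plates with PMA. Jurkat levels were 1008, 905, 1185, 1657 and 1174 CPM with DMSO, 370, 653 and 717 CPM under SAHA and 375.5, 596 and 560 CPM under PMA. All agent plates were below all DMSO plates of their line, and the 2 agents overlapped each other. NCL fell by 1.34 ± 0.15 (SE, log2, adjusted p = 0.000906) with SAHA and 1.17 ± 0.20 (0.0182) with PMA in J-Lat A2, and by 1.18 ± 0.20 (0.0122) and 1.37 ± 0.20 (0.00836) in Jurkat. NPM3, a smaller relative of NPM1, was rare (2.67 ± 1.74 CPM in J-Lat A2 with DMSO, SD, n = 2 batches) and did not pass the test in any contrast. With PMA it rested on 12 counts in J-Lat A2, 66.7% of them in 1 cell.

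NOLC1 is a chaperone that escorts snoRNPs through the nucleolus and Cajal bodies. In J-Lat A2 its level was 362, 310.5, 449.5, 572 and 356 CPM on the DMSO plates, 142.8, 142.9, 128.3, 205 and 159.1 CPM on the SAHA plates and 104.7, 110.5 and 137.6 CPM on the PMA plates. For Jurkat the levels were 264, 266, 145.9, 353.5 and 256 CPM with DMSO, 64.6, 131.3 and 79.9 CPM under SAHA and 104.2, 113.7 and 108.9 CPM under PMA. Neither agent overlapped DMSO and the agents overlapped each other, although the DMSO plate P2769 of Jurkat (145.9 CPM) came close to the highest SAHA plate (131.3 CPM). NOLC1 fell by 1.41 ± 0.19 (SE, log2, adjusted p = 0.00187) with SAHA and 1.92 ± 0.25 (0.00470) with PMA in J-Lat A2, and fell by 1.66 ± 0.25 (0.00732) and 1.44 ± 0.25 (0.0173) in Jurkat.

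Box C/D snoRNPs share a core of NOP56, NOP58, fibrillarin (FBL, the methyltransferase) and a further small protein, and RRP9 belongs to the U3 snoRNP that guides early cuts. The calls within this class were unequal, and differences between genes were not tested. NOP56 in J-Lat A2 was at 368, 396, 348, 388 and 449 CPM on the DMSO plates, 157.1, 259, 110.995, 250 and 173.1 CPM on the SAHA plates and 140.1, 126.2 and 167.8 CPM on the PMA plates. Jurkat plates were at 223, 491, 366, 322 and 322 CPM with DMSO, 113.2, 181.6 and 201.2 CPM under SAHA and 122.8, 135.05 and 148.2 CPM under PMA, so no agent plate reached a DMSO plate in either line. It fell by 1.05 ± 0.17 (SE, log2, adjusted p = 0.00526) and 1.48 ± 0.23 (0.0111) with SAHA and PMA in J-Lat A2, and by 1.02 ± 0.23 (0.0349) and 1.32 ± 0.23 (0.0173) in Jurkat.

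NOP58, the partner of NOP56 in the same core and the most abundant of this class per length, was not called in any contrast. Its plate levels in J-Lat A2 were 393 to 604 CPM (median 499) with DMSO, 356 to 551 CPM (501.9) with SAHA and 298 to 412 CPM (314) with PMA, and those with SAHA overlapped DMSO along most of their range. The log2 change with SAHA was -0.19 (95% interval -0.56 to 0.19) in J-Lat A2 and -0.09 (-0.57 to 0.39) in Jurkat, which leaves out a fall as large as that of NOP56. With PMA it was -0.76 (-1.26 to -0.26) and -0.41 (-0.90 to 0.07), with adjusted p of 0.149 and 0.471. FBL was not called in any contrast either. With SAHA it was at -0.09 (-0.67 to 0.49) in J-Lat A2 and -0.55 (-1.30 to 0.21) in Jurkat. With PMA it was at -0.83 (-1.61 to -0.06, adjusted p = 0.362) and -0.97 (-1.74 to -0.20, 0.225). The intervals of the agents overlapped within each line. RRP9 fell with SAHA in J-Lat A2 (-1.44 ± 0.24, SE, adjusted p = 0.00607), and was at -1.33 ± 0.32 with SAHA in Jurkat (adjusted p = 0.0503).

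Box H/ACA snoRNPs are built from dyskerin (DKC1, the pseudouridine synthase) with NOP10, NHP2 and GAR1. DKC1 was at 436 to 624 CPM (median 506.2) on the DMSO plates of J-Lat A2, at 127.2 to 212 CPM (163.5) with SAHA and at 154.996 to 190.8 CPM (177.5) with PMA. In Jurkat it was at 347 to 488 CPM (469) with DMSO, 205 to 276 CPM (265) with SAHA and 119.5 to 205 CPM (120) with PMA, and no agent plate overlapped DMSO. DKC1 fell by 1.67 ± 0.16 (SE, log2, adjusted p = 0.000331) with SAHA and 1.53 ± 0.21 (0.00603) with PMA in J-Lat A2, and by 1.53 ± 0.21 (0.00590) with PMA in Jurkat. With SAHA in Jurkat its change was -0.78 ± 0.20 (adjusted p = 0.0696).

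NOP10, a small protein of this particle, was not called in any contrast. It was at 106.2 to 220 CPM (median 158.8) on the DMSO plates of J-Lat A2, 122.7 to 294 CPM (134.03) with SAHA and 139.3 to 227 CPM (159.5) with PMA, with ranges that overlapped. Its log2 changes were -0.04 (95% interval -0.49 to 0.40) and 0.00 (-0.58 to 0.58) with SAHA and PMA in J-Lat A2 and -0.03 (-0.61 to 0.55) and 0.40 (-0.17 to 0.98) in Jurkat. These intervals leave out a fall of the size of that of DKC1 in J-Lat A2. NHP2 was at -0.38, -0.65, -0.64 and -0.81 and did not pass the test (adjusted p of 0.105 to 0.23). GAR1 was low, at 15.3 ± 4.41 CPM (SD, n = 2 batches) in J-Lat A2 with DMSO, and its intervals were wide.

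**Figure D3:**
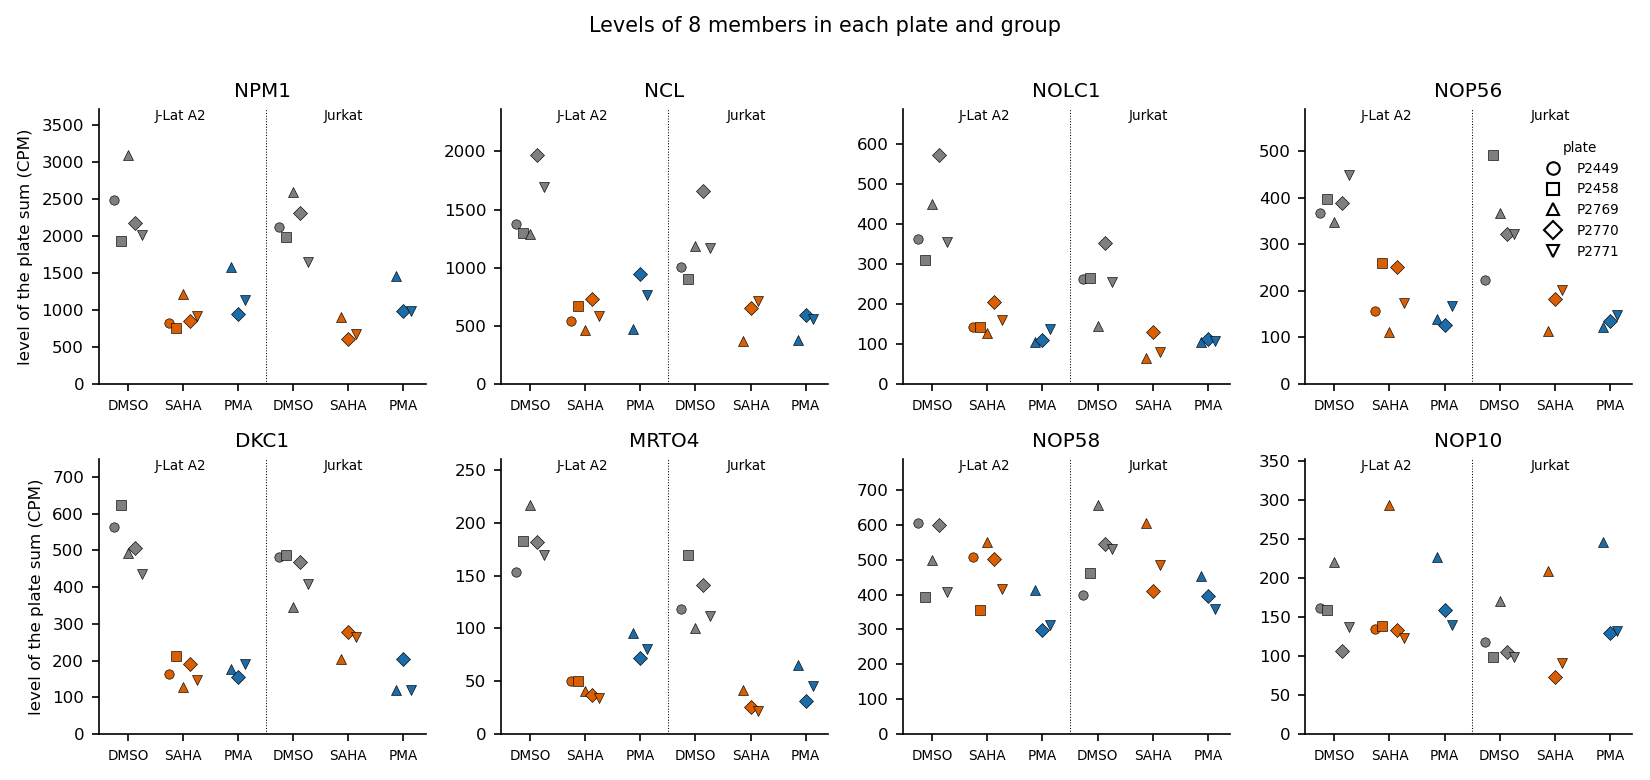
Levels (TMM-normalised CPM, y axis) of 8 members in the plate sums of the 6 groups (x axis), with 1 marker shape per plate. NPM1, NCL, NOLC1, NOP56, DKC1 and MRTO4 are lower on every agent plate than on every DMSO plate of the same line, while NOP58 and NOP10 overlap DMSO with either agent.

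RNA polymerase I was represented by its largest subunit POLR1A, its second catalytic subunit POLR1B and POLR1C, which RNA polymerase III shares. POLR1B was at 53.7 to 130.7 CPM (median 98.0) on the DMSO plates of J-Lat A2, 10.1 to 51.2 CPM (29.5) with SAHA and 16.1 to 37.9 CPM (19.4) with PMA. No agent plate reached a DMSO plate in that line, nor in Jurkat (48.2 to 117.4 CPM with DMSO, 30.6 to 39.8 CPM with SAHA, 24.8 to 33.5 CPM with PMA). It fell in J-Lat A2 by 1.79 ± 0.30 (SE, log2, adjusted p = 0.00597) with SAHA and by 2.03 ± 0.40 (0.0339) with PMA. The Jurkat changes were -1.43 ± 0.39 (adjusted p = 0.0792) and -1.66 ± 0.40 (0.0654). POLR1C fell with SAHA in both lines, by 1.55 ± 0.26 (0.00644) in J-Lat A2, from 111.5 to 179.1 CPM on the DMSO plates to 30.3 to 73.7 CPM, and by 2.31 ± 0.37 (0.00903) in Jurkat, from 142.1 to 174.9 CPM to 25.1 to 52.4 CPM. With PMA its plates reached 87.5 to 175.6 CPM in J-Lat A2 and overlapped DMSO. In Jurkat its PMA plates, at 83.5 to 127.2 CPM, lay wholly below DMSO. The changes with PMA were -0.51 and -0.83 (adjusted p of 0.67 and 0.32). POLR1A was at 7.85 ± 2.37 CPM (SD, n = 2 batches) in J-Lat A2 with DMSO, its reads were found in 19.1% of those cells, and no change of it could be detected at this depth.

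Of the 8 members that build the small subunit, 4 fell with SAHA in each line (4.9% of all tested genes in J-Lat A2 and 2.37% in Jurkat). UTP4, UTP20, NOP14 and WDR43 belong to the processome on the nascent precursor, BYSL, RRP12 and TSR1 act on later particles, and NOB1 is the nuclease that makes the final end of the small ribosomal RNA. WDR43 was at 242.5 to 319 CPM (median 260) on the DMSO plates of J-Lat A2, 51.9 to 106.2 CPM (92.3) with SAHA and at 58.9 CPM on the lowest PMA plate (138.5). The agents overlapped each other, and their highest plates lay below the lowest DMSO plate. In Jurkat it was at 146.7 to 322 CPM (214), 67.0 to 80.6 CPM (71.3) and 71.6 to 110 CPM (90.95), with overlap between the agents but not with DMSO. It fell by 1.61 ± 0.19 (SE, log2, adjusted p = 0.000995) with SAHA in J-Lat A2 and by 1.77 ± 0.25 (0.00556) with SAHA and 1.46 ± 0.25 (0.0164) with PMA in Jurkat. With PMA in J-Lat A2 it was at -1.11 ± 0.24 (adjusted p = 0.0542).

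TSR1 was at 187.1 to 322.5 CPM on the DMSO plates of J-Lat A2, 96.2 to 124.7 CPM with SAHA and 28.8 to 163.7 CPM with PMA. In Jurkat it was at 164.3 to 336 CPM with DMSO, 61.3 to 69.9 CPM with SAHA and 66.6 to 131.98 CPM with PMA. Neither agent overlapped DMSO, and the PMA plates spread more widely than the SAHA plates. TSR1 fell by 1.08 ± 0.20 (SE, log2, adjusted p = 0.00965) with SAHA in J-Lat A2, and in Jurkat it fell by 1.99 ± 0.28 (0.00505) with SAHA and 1.35 ± 0.27 (0.0340) with PMA. NOB1 fell with SAHA in both lines, by 1.08 ± 0.26 (0.0316) from 71.7 to 125.5 CPM on the DMSO plates to 18.03 to 60.03 CPM in J-Lat A2, and by 1.73 ± 0.36 (0.0258) from 82.3 to 136.04 CPM to 25.8 to 39.7 CPM in Jurkat. With PMA in J-Lat A2 it was at 74.4 to 90.9 CPM, within the DMSO range, and its change was -0.25 (95% interval -0.997 to 0.49). With PMA in Jurkat NOB1 was not called, but its plates, at 47.4 to 65.6 CPM, lay wholly below DMSO. UTP4 fell with SAHA in Jurkat (-1.30 ± 0.26, adjusted p = 0.0246) and BYSL with SAHA in J-Lat A2 (-1.13 ± 0.30, 0.0496, a call lost under 9 of 16 alternatives). NOP14, UTP20 and RRP12 did not pass in any contrast, at 18.6 to 33.4 CPM in J-Lat A2 with DMSO.

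The large subunit class held 12 members, of which 8 fell with SAHA in J-Lat A2, 5 with SAHA in Jurkat and none with PMA in either line. Of all tested genes 4.9% and 2.37% fell with SAHA in J-Lat A2 and Jurkat, and 0.804% and 1.11% with PMA. With PMA 7 of the class in J-Lat A2 and 6 in Jurkat were below 0 with an unadjusted p under 0.05. So were 816 and 915 of all 13560 genes. The medians of the class with PMA were -0.81 and -0.99. MRTO4, a placeholder for a protein of the ribosomal stalk, was at 153.4 to 217 CPM (median 181.8) on the DMSO plates of J-Lat A2, 34.1 to 49.9 CPM (40.2) with SAHA and 71.5 to 96.0 CPM (80.2) with PMA. The groups did not overlap, and SAHA also lay wholly below PMA. It fell with SAHA by 2.05 ± 0.26 (SE, log2, adjusted p = 0.00161) in J-Lat A2 and by 2.08 ± 0.35 (0.0118) in Jurkat, where it was at 100 to 169.5 CPM with DMSO and 22.2 to 41.3 CPM with SAHA. With PMA it was at -1.10 ± 0.33 (adjusted p = 0.16) and -1.43 ± 0.34 (0.0666).

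GNL3, or nucleostemin, is a nucleolar GTP-binding protein known from proliferating stem and tumour cells. It was at 357 to 549 CPM on the DMSO plates of J-Lat A2, 63.5 to 173.1 CPM with SAHA and 190 to 299.5 CPM with PMA, with no overlap between any 2 of the 3 groups. In Jurkat it was at 270 to 485 CPM, 76.3 to 132.1 CPM and 213 to 219 CPM in the same order, again with no overlap. GNL3 fell with SAHA by 1.73 ± 0.18 (SE, log2, adjusted p = 0.000600) and 2.05 ± 0.25 (0.00266), and was at -0.95 ± 0.24 (adjusted p = 0.0885) and -0.88 ± 0.24 (0.103) with PMA. Its relative GNL2 was not called in any contrast and was at 271 to 375 CPM with DMSO, 278 to 384 CPM with SAHA and 249 to 414 CPM with PMA in J-Lat A2. The log2 changes of GNL2 in J-Lat A2 were 0.01 (95% interval -0.35 to 0.37) and 0.04 (-0.43 to 0.51), which leave out a fall as large as that of GNL3. In Jurkat GNL2 was at 339.9 to 452.3 CPM with DMSO and 340.1 to 389.3 CPM with SAHA. With PMA it was at 246.5 to 336.6 CPM there, wholly below DMSO.

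NOP16 was at 129.2 to 368 CPM on the DMSO plates of J-Lat A2, 24.6 to 73.4 CPM with SAHA and 83.2 to 112.3 CPM with PMA, and fell with SAHA by 1.96 ± 0.24 (SE, log2, adjusted p = 0.00139) there and by 2.10 ± 0.33 (0.00869) in Jurkat. In Jurkat the highest PMA plate (154.7 CPM) came within reach of the lowest DMSO plate (156.9 CPM). PES1, BOP1 and WDR12 form the PeBoW complex, which is needed to process the large ribosomal RNA. All 3 fell with SAHA in J-Lat A2, PES1 by 1.62 ± 0.36 (adjusted p = 0.0212), BOP1 by 1.87 ± 0.48 (0.0420) and WDR12 by 0.78 ± 0.19 (0.0329). These calls were lost under 6, 7 and 7 of the 16 alternatives, and those of NPM1 and DKC1 in that contrast under 1. WDR12, at 191.9 to 258 CPM with DMSO and 112.7 to 156.9 CPM with SAHA in J-Lat A2, also fell with SAHA in Jurkat (-1.34 ± 0.25, 0.0191), where it was at 320 to 459 CPM with DMSO and 110 to 181.3 CPM with SAHA. NOP2, a methyltransferase of the large ribosomal RNA, and LAS1L, part of the enzyme that cuts its internal spacer, fell with SAHA in J-Lat A2 (-1.25 ± 0.21, 0.00651, and -1.01 ± 0.20, 0.0131). NIP7 fell with SAHA in Jurkat (-1.27 ± 0.30, 0.0460). PPAN and RRP1B did not pass in any contrast, PPAN at 6.08 ± 2.34 CPM (SD, n = 2 batches) in J-Lat A2 with DMSO and RRP1B at log2 changes of -0.48 to 0.05.

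DDX21, an RNA helicase that links transcription and processing of ribosomal RNA, was at 105.98 to 168.8 CPM on the DMSO plates of J-Lat A2, 23.4 to 77.9 CPM with SAHA and 62.9 to 70.7 CPM with PMA. In Jurkat it was at 88.7 to 178.9 CPM, 33.5 to 68.4 CPM and 32.9 to 60.7 CPM in the same order, and neither line had an overlap with DMSO. It fell with SAHA in J-Lat A2 by 1.26 ± 0.24 (SE, log2, adjusted p = 0.0110) and in Jurkat by 1.37 ± 0.32 (0.0445) with SAHA and 1.52 ± 0.32 (0.0437) with PMA. With PMA in J-Lat A2 it was at -1.01 ± 0.31 (adjusted p = 0.172). LYAR, a nucleolar growth regulator, was at 93.5 to 222.5 CPM with DMSO and 66.4 to 112.7 CPM with SAHA in J-Lat A2, and fell there by 0.91 ± 0.22 (0.0303) with overlapping plates. In the other 3 contrasts its changes were -0.91 to -1.13 and did not pass.

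Per length of exon the 37 genes spanned 3 orders of magnitude. The length is that of all annotated exons of a gene merged (5.398 kb for NOP56 and 3.299 kb for NOP58). It can exceed the length of the mRNA, so the order of genes depends in part on annotation. In J-Lat A2 with DMSO the level was 629 CPM per kb for NPM1, 287 for NOP10, 232 for NHP2, 217 for NCL and 160 for NOP58, down to 0.581 for POLR1A. With SAHA NPM1 was at 231 CPM per kb, below NOP10 (281), and with PMA the 2 were level at 307. Members of 1 particle differed in this: DKC1 was at 125.9 CPM per kb with DMSO, 39.5 with SAHA and 40.4 with PMA, next to 287, 281 and 307 for NOP10. NOP56 was at 71.2, 34.2 and 26.1 CPM per kb next to 160, 140.98 and 100 for NOP58.

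**Figure D4:**
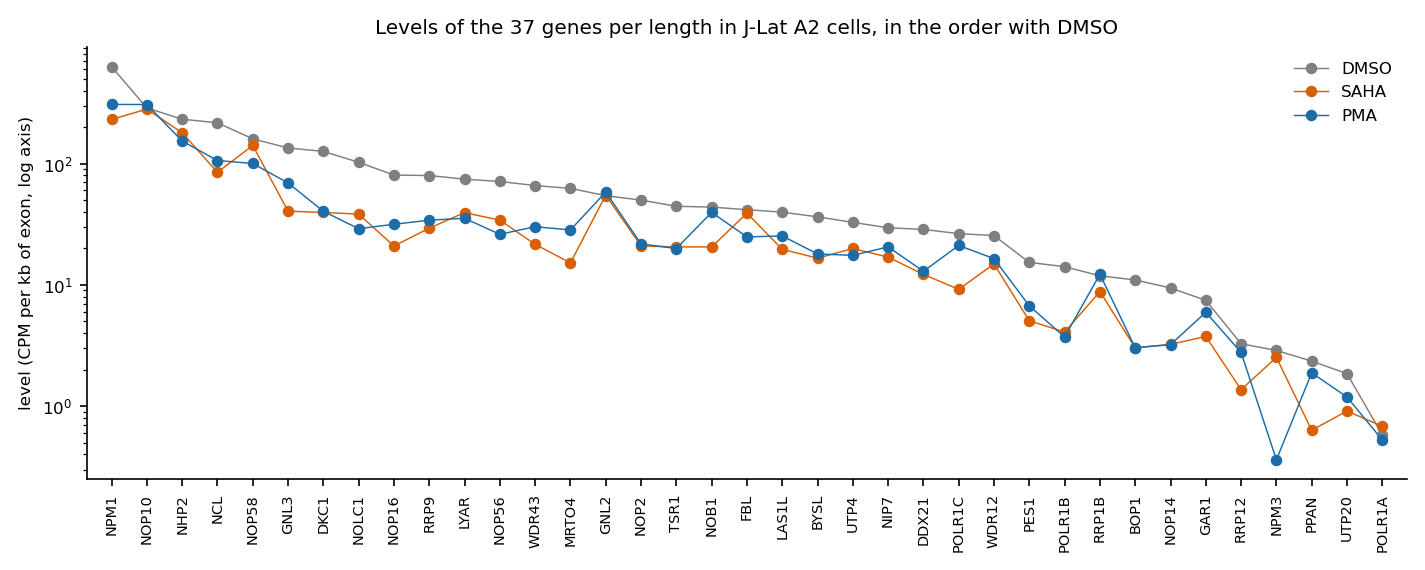
Mean level per kb of exon (CPM per kb, log axis) of the 37 genes in J-Lat A2 cells with DMSO, SAHA and PMA, ordered from left to right by the level with DMSO. Most agent points lie below the DMSO line, and those of NOP10, NOP58 with SAHA, GNL2 and FBL with SAHA lie on or near it.

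The share of cells with a read was lower for most members as well. Such shares were not computed over all genes. The median J-Lat A2 cell also had fewer genes with a read in all, with 4458 under SAHA and 4484 under PMA against 5032 with DMSO (without thinning). How far the lower shares of the members were general was not tested. With each cell thinned to 100000 counts, the share was lower than with DMSO for 37 of 37 members with SAHA and for 35 with PMA in J-Lat A2, and for 32 and 31 in Jurkat, where several members had a read in every cell. The median over members was 89% of cells with DMSO, 54.7% with SAHA and 63.6% with PMA in J-Lat A2, and 100%, 69.4% and 75% in Jurkat. MRTO4 had a read in 97.8% of J-Lat A2 cells with DMSO, 48.7% with SAHA and 66.2% with PMA (96.8%, 45.2% and 67.1% without thinning). For POLR1B the thinned shares were 58.2%, 23.1% and 16.9% (59.6%, 23% and 19% without thinning). NPM1 had a read in 98.3% or more of the thinned cells of every group (88.9% of J-Lat A2 cells with SAHA without thinning). The libraries had no molecular identifiers, so reads are not single molecules.

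**Figure D5:**
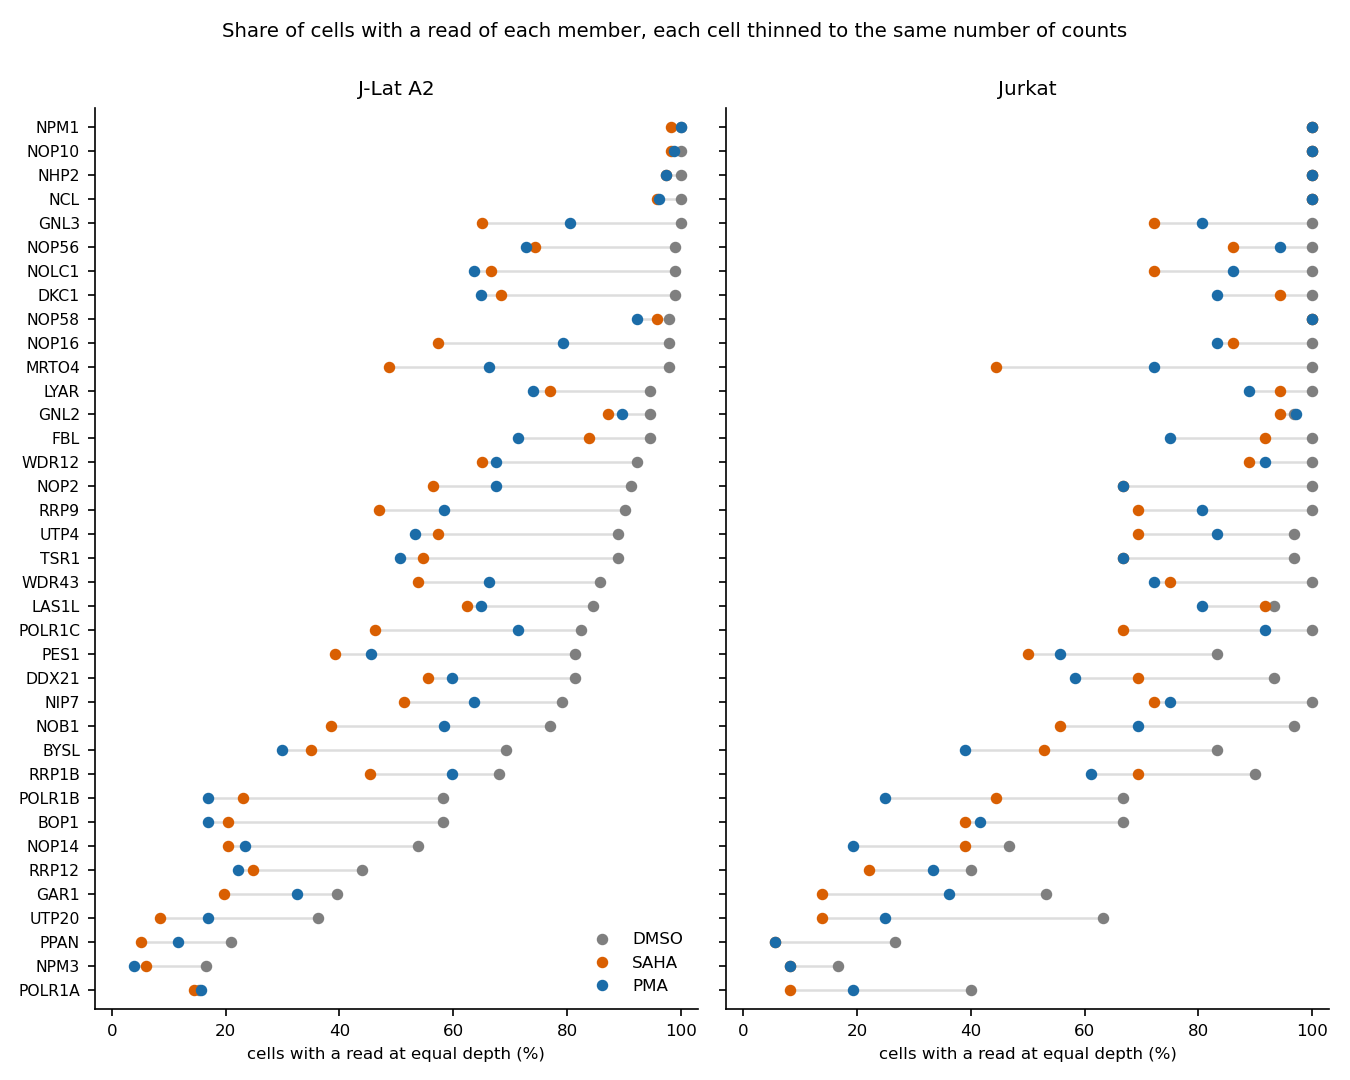
Share of cells (%, x axis) with at least 1 read of each member (y axis, ordered by J-Lat A2 with DMSO) after each cell was thinned to 100000 counts, in J-Lat A2 on the left and Jurkat on the right. In J-Lat A2 every SAHA point lies left of its DMSO point, for MRTO4 at 48.7% against 97.8%, and coinciding points hide each other at the right edge.

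Between the agents, no member passed the test of PMA against SAHA in J-Lat A2, where 3.62% of all tested genes were called in either direction. At an unadjusted p under 0.05 there were 6 of 37, a share near that of all tested genes (1964 of 13560). Of these POLR1C (1.05, 95% interval 0.33 to 1.76, adjusted p = 0.128), MRTO4 (0.95, 0.23 to 1.67, 0.174), NOB1 (0.83, 0.09 to 1.57, 0.27), GNL3 (0.78, 0.27 to 1.30, 0.114) and NOP16 (0.70, 0.03 to 1.37, 0.319) were higher with PMA on the log2 scale. NOP58 was lower (-0.58, -1.07 to -0.08, 0.243). The median difference was 0.14, with 12 of 37 members below 0, against -0.05 for all tested genes. For the members that fell in every contrast the intervals were -0.03 to 0.69 for NPM1, -0.26 to 0.61 for NCL, -1.05 to 0.02 for NOLC1 and -0.92 to 0.07 for NOP56. With plate sums in place of batch sums 5 members were called, 4 of them higher with PMA (1084 of 11830 genes in all were called there), and with DESeq2, or without the first SAHA batch of J-Lat A2, 1 was called.

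With DMSO, no member was called between J-Lat A2 and Jurkat, where 0.398% of all tested genes were called, and the median log2 difference was 0.05, against 0.06 for all tested genes. WDR12 was lower in J-Lat A2 (-0.70, 95% interval -1.13 to -0.27, unadjusted p = 0.00456, adjusted p = 0.205) and NOLC1 was higher (0.57, 0.16 to 0.98, unadjusted p = 0.0117, adjusted p = 0.31). These 2 of 37 were the members with an unadjusted p under 0.05, as were 1260 of all 13560 genes, and DESeq2 called 1 member and 425 genes in all.

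The test of the difference between the lines' responses called no member for SAHA, where 0.00737% of all tested genes were called, and none for PMA, where 0.0221% were called. DESeq2 called none in either. At an unadjusted p under 0.05 there were 2 members for SAHA, 1 of them below 0 (259 of all 13560 genes were below 0 at that p), and none for PMA (460 of all genes). The difference between the lines in the SAHA change was -0.89 for DKC1 (95% interval -1.46 to -0.34, unadjusted p = 0.00527, adjusted p = 1), and 0.90 for TSR1 (0.18 to 1.63, unadjusted p = 0.0196, adjusted p = 1). The median difference was 0.12 for SAHA and 0.01 for PMA. For NPM1 the difference between the lines was 0.20 (-0.27 to 0.67) for SAHA and -0.10 (-0.59 to 0.39) for PMA, so a difference larger than 0.67 in either direction lies outside both intervals.

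Promoters were looked at for the E-box CACGTG, the site bound by MYC with MAX and by other factors of that family, which reads the same on both strands. RefSeq windows (GRCh38.p14) of 300 bases, from 250 before to 50 after the annotated start, were found for 32 members, and NOP58, NOLC1, BOP1, RRP1B and RRP12 had none. CACGTG occurred in 12 of 32 members (37.5%), in 9.92% of the 10717 tested genes with a window, in 5.71% of those of cytoplasmic ribosomal proteins and in 8.7% of those of mitochondrial ribosomal proteins. In the 85 bases from 60 before to 25 after the start, 10 of 32 members (31.2%) had it, against 4.17% of all. The 300-base windows of 2 of the 14 members that fell in at least 2 contrasts held it, and those of 10 of the 18 that fell in fewer. The 85-base windows of 10 members are printed 5′ to 3′ on the strand of the gene, with CACGTG in capitals. They show 3 members without the E-box that fell in all 4 contrasts (NOP56, NCL and NPM1), 5 with it that fell in 1 to 3 (PES1, WDR43, RRP9, UTP4 and MRTO4) and 2 with it that fell in none (NOP10 and GNL2). NOP14, FBL and UTP20 also had the E-box in the 85-base window, fell in no contrast and are not printed. A match is a description of the sequence and not evidence of binding.
NOP56 (chr20:2652572-2652656, plus strand): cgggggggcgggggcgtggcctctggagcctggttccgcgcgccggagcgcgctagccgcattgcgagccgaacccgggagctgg
NCL (chr2:231464460-231464544, minus strand): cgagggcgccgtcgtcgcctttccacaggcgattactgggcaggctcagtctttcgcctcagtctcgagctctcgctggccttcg
NPM1 (chr5:171387789-171387873, plus strand): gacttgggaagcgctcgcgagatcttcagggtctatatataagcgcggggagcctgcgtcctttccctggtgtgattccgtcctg
PES1 (chr22:30591886-30591970, minus strand): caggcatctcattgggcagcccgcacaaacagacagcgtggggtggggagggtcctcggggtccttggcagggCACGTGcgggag
WDR43 (chr2:28894607-28894691, plus strand): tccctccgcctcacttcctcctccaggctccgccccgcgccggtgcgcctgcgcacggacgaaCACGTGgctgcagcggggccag
RRP9 (chr3:51941880-51941964, minus strand): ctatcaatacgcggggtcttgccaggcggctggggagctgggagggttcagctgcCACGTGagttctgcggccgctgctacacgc
UTP4 (chr16:69132589-69132673, plus strand): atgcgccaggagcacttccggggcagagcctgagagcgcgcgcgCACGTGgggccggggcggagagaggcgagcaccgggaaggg
MRTO4 (chr1:19251745-19251829, plus strand): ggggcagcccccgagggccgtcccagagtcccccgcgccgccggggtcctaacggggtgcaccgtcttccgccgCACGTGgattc
NOP10 (chr15:34343112-34343196, minus strand): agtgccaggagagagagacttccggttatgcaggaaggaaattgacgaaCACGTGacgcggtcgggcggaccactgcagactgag
GNL2 (chr1:37595913-37595997, minus strand): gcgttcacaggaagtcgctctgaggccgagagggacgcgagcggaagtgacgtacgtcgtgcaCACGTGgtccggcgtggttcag

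In these windows the E-box of WDR43 and that of GNL2 lie at the same distance from the start, beginning at base 3 after it. WDR43 fell in 3 contrasts and GNL2 in none. This pair was picked after its calls were seen, and a part of the site in the calls was not tested. MYC itself, a transcription factor known to act on genes of ribosome production, was at 248 ± 110.6 CPM (SD, n = 2 batches) in J-Lat A2 with DMSO, 25.9 ± 10.3 CPM with SAHA and 11.4 CPM with PMA (n = 1). It fell by 3.14 ± 0.42 (SE, log2, adjusted p = 0.00222) and 4.60 ± 0.62 (0.00522) in J-Lat A2, and by 3.78 ± 0.59 (0.00799) and 3.79 ± 0.59 (0.0104) in Jurkat. Its part in the change of the 37 genes was not tested.

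A further shared feature was position, since many snoRNAs are cut from introns of other genes. In GENCODE release 29, 8 of the 37 genes (21.6%) contained an annotated snoRNA gene on their own strand, 27 snoRNAs in all, against 1.63% of the 13509 tested genes with an entry and 31.8% of 88 cytoplasmic ribosomal protein genes. The hosts were GNL3 (6 snoRNAs), NOP56 (5), NOP58 (4), NCL (3), WDR43 (3), DKC1 (2), TSR1 (2) and PPAN (2). Of these 8, NOP56 and NCL fell in 4 contrasts, DKC1, TSR1 and WDR43 in 3, GNL3 in 2, and NOP58 and PPAN in none. NOP56 hosts SNORD56, SNORD57, SNORD86, SNORD110 and SNORA51, and NCL hosts SNORD20, SNORD82 and SNORA75. The library was primed on poly(A) tails, so the snoRNAs themselves were not measured here.

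The exons of 13 members overlap those of another gene among the features: NOP16, NOP2, NHP2, GNL2, GNL3, POLR1C, TSR1, PES1, WDR12, UTP4, NIP7, MRTO4 and PPAN. The library kit does not mark the strand, so reads in the overlap cannot be told apart. NPM1 lies at 171387116 to 171411137 on chromosome 5, NCL at 231453531 to 231483641 on chromosome 2, NOP56 at 2652145 to 2658393 on chromosome 20 and NOLC1 at 102152176 to 102163871 on chromosome 10 (GRCh38, GENCODE release 29). None of these 4 overlaps the exons of another gene among the features, and annotated genes outside the features were not checked.

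Beyond the 37, 150 other genes of the pathway were grouped into 5 lists, and all of them passed the filter on low counts. Of these 33 fell and 2 rose with SAHA in J-Lat A2, 4 fell with PMA in J-Lat A2, 15 fell and 1 rose with SAHA in Jurkat, and 7 fell with PMA in Jurkat. In the same order 4.9%, 0.804%, 2.37% and 1.11% of all tested genes fell. By list, 12 of 55 large subunit factors, 9 of 44 small subunit factors, 6 of 18 exosome and nuclease genes, 4 of 17 polymerase I genes and 2 of 16 snoRNP genes fell with SAHA in J-Lat A2. The medians of these lists were -0.74, -0.50, -0.61, -0.18 and -0.36, against 0.12 for all tested genes, and all were closer to 0 than that of the 37. Among them UBTF, the factor that opens ribosomal DNA to RNA polymerase I, went from 30.3 to 4.54 CPM (-3.03 ± 0.63, SE, adjusted p = 0.0172) with SAHA in J-Lat A2. EMG1, a methyltransferase of the small subunit, fell with SAHA in J-Lat A2 (-1.69 ± 0.20, 0.00102) and in Jurkat (-1.49 ± 0.26, 0.0142). The exosome subunit EXOSC5 did so as well (-2.11 ± 0.26, 0.0013, and -1.81 ± 0.35, 0.0194). With PMA SHQ1, a chaperone of dyskerin, fell in J-Lat A2 (-1.42 ± 0.27, 0.0265) and in Jurkat (-1.55 ± 0.26, 0.016).

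The 3 that rose were RPAP3 (1.37 ± 0.30, SE, adjusted p = 0.0225) and C1D (1.27 ± 0.29, 0.0248) with SAHA in J-Lat A2 and PIH1D1 (1.13 ± 0.23, 0.0255) with SAHA in Jurkat. RPAP3 and PIH1D1 are subunits of the R2TP cochaperone complex, which assembles snoRNPs and RNA polymerases, and C1D is a cofactor of the nuclear exosome. Ribosomal proteins, the building blocks that these factors assemble, were counted for comparison. Of 88 cytoplasmic ribosomal protein genes 7, 1, 0 and 0 fell in the 4 contrasts and 1, 0, 0 and 1 rose (4.9%, 0.804%, 2.37% and 1.11% of all tested genes fell). Of these 88, 21, 30, 10 and 26 were below 0 with an unadjusted p under 0.05, as were 1453, 816, 1134 and 915 of all 13560 genes. The medians of the 88 were -0.06, -0.37, -0.09 and -0.31. Of 78 mitochondrial ribosomal protein genes 22, 0, 5 and 0 fell and 1, 0, 0 and 0 rose, with medians of -0.48, -0.48, -0.38 and -0.35. No test of the 37 against these lists was made, since the lists were chosen with results known.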

How the data were processed

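Per the submitters' processing notes, reads were quantified with Salmon 1.5.1 and alevin, with GRCh38.p13 named as a build. The authors deposited expected counts per gene and well, of which 13.72% of the positive values were not whole. From these, wells with under 0.1 times the median total of their plate or under 500 genes were left out, and counts were summed per group and batch and then rounded. The batch of a plate was inferred from the runs of plate names and is not stated in the labels. The 9 sums were fitted in edgeR 4.0.16 (R 4.3.3) with group and batch as terms, TMM scaling and the quasi-likelihood test. The batch term is the replicate block of this fit. A group with 1 sum is assumed to vary like the others. Fold changes come from this fit and need not equal ratios of the printed levels. For shares of cells, each well was thinned to 100000 counts (387 wells). limma 3.58.1 and DESeq2 1.42.0 served as alternatives, with other filters, scalings and sums. The fit was also tested on simulated data for SAHA in J-Lat A2, where it missed most changes of 1 log2 unit. The 95% intervals of log2 changes come from the same fit and carry the spread between sums. Genes were matched to GENCODE release 29.

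The members and lists were chosen with earlier results of these data known. Values per plate were given for members that fell in at least 2 of 4 contrasts and for the highest member per length of each class, as ranges beyond the 4 that fell in every contrast. Other genes named, and members shown as not called, were chosen after their values were seen.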

Additional observations from a re-analysis of the deposited data

Results flagged for a closer look

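The plate levels of each of the 37 members were examined in the 3 groups with 5 plates. In 7 of these sets of 5 plates 1 plate stood apart by Dixon's criterion (gap over range above 0.71), and chance marks about 1 in 20. The number 7 alone is near what chance gives, but most of the 7 were on plate P2769. In J-Lat A2 cells with SAHA, plate P2769 stood apart for NOP10 (293.71 CPM against 122.75 to 138.08 CPM on the other plates), NHP2 (400.36 CPM against 234 to 268 CPM), TSR1 (96.2 CPM against 116.97 to 124.7 CPM) and WDR43 (51.9 CPM against 90.6 to 106.17 CPM). In the same group, plate P2771 stood apart for GAR1 (13.8 CPM against 5.76 to 7.21 CPM). In Jurkat cells with DMSO, NOP2 was at 334 CPM on plate P2771 against 174.82 to 201.8 CPM on the others. NOP10 was at 170.86 CPM on plate P2769 of that group against 98.6 to 118.22 CPM. In all 6 groups NOP10 was highest on plate P2769. This plate also had the lowest median number of genes with a read and the highest median mitochondrial share in every group. In J-Lat A2 with SAHA these were 3518 genes and 5.902%, against 4519 to 4936 genes and 4.598% to 4.955% on the other plates. The part of this plate difference in the 7 sets was not tested.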

How the results depend on the processing

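No alternative reversed the direction of a called member. The counts of members that fell were 22, 6, 15 and 8 (SAHA and PMA in J-Lat A2, then SAHA and PMA in Jurkat), 51 calls in all. With each cell weighted equally (limma) they were 0, 0, 0 and 0, and that fit called 0 of all 13560 genes in each. DESeq2 called 14 with PMA in J-Lat A2, 17 with PMA in Jurkat, and 1 member each for PMA against SAHA and for the lines with DMSO. Plate sums with a plate block called 15 and 19 with PMA in J-Lat A2 and Jurkat, 5 for PMA against SAHA and 1 between the lines, and the second batch alone called 12, 14 and 3 in the first 3 of these. Of all tested genes 2.71% and 3.48% fell with PMA in J-Lat A2 and Jurkat under DESeq2, and 2.91% and 3.5% under plate sums. The main fit had 0.804% and 1.11%, and the second batch alone 1.97% and 2.77%. For PMA against SAHA the second batch alone called 800 of 11465 genes in all. Without the replicate block, that is with the batch term left out, the counts of members were 22, 5, 14 and 7. Leaving out 1 sum at a time gave 10 to 24, 0 to 11, 8 to 18 and 2 to 15, with 0 to 1 for PMA against SAHA and 0 for the 3 contrasts between the lines. Under a left-out sum the number of all genes that fell mostly moved with that of the members. Without the shallow plate P2458, an alternative chosen after seeing the data, the counts of members were 18, 5, 11 and 6. Of the 51 calls, DESeq2, plate sums, no filter on low counts and the stricter well filter each kept 51, all wells kept 45 and the least favourable left-out sum (the second DMSO batch of J-Lat A2) kept 29. The cause of these shifts was not tested. Depth limits NPM3, PPAN, POLR1A and GAR1, whose intervals span several log2 units.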
